A study of Homo sapiens with 4 samples.

Results

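The genes of HLA class I antigen presentation described here were 9 of the 43317 gene names on the array. They were chosen by name as 4 class I heavy chains (HLA-B, HLA-C, HLA-E and HLA-F), the light chain B2M, both subunits of the peptide transporter (TAP1 and TAP2), the loading chaperone tapasin (TAPBP) and the activator NLRC5. All probes carrying these names were taken, 19 in all. The cells were HCT116, a colorectal cancer line, and A549, a lung cancer line, each transfected with the microRNA miR-891b or with the negative control NC1, using the reagent Dharmafect1. The study concerned PSAT1 and the extracellular vesicles that cancer cells release. There was 1 array for each of the 4 combinations of line and RNA, so no difference within a line had a replicate check and none is given a p-value. Values on the 4 arrays are always listed with HCT116 before A549 and, within a line, NC1 before miR-891b.

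Class I molecules show peptides from inside the cell to cytotoxic T cells. A heavy chain pairs with beta-2-microglobulin in the endoplasmic reticulum, where the transporter TAP brings in peptides cut by the proteasome and tapasin holds the empty heavy chain at the transporter until a peptide is bound. NLRC5 is the transactivator of most class I genes, interferons raise the whole set, and cancer cells often show less of it.

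The levels below are log2 of the background-corrected signal minus the 75th percentile of that array, and a change is miR-891b minus NC1 on that scale. A probe was measured in a comparison where the scanner software marked it well above background on both arrays. A gene with several probes was represented by the brightest, and a change counted from 2-fold up. Between 44.7% and 50.3% of the 58201 gene probes were well above background on an array, and 0 spots were saturated. All 4 markers of HCT116 were lower in A549 (CDX2 by a log2 difference of -5.23), and all 5 markers of A549 were higher there (AKR1B10 by 12.17), with ALDH1A1 at background in HCT116. AKR1B10 also changed by 4.47 in HCT116, where ALDH3A1 and KRT81 changed by -0.48 and -0.28. Stray signal surrounded 10.5% of the gene spots on HCT116 miR-891b, against 0.0213% to 2.20% on the other arrays. Both arrays of a line were on 1 slide in 1 scan, per the file headers, so line and slide cannot be told apart.

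The heavy chain genes resemble each other so closely that the probes themselves are part of the result. An HLA-B probe at chr6:31321663-31321722 (hg19, as the array's annotation gives all probe positions) and an HLA-C probe placed at chr6:31321644-31321703 shared 41 bases with 0 mismatches. A further HLA-B probe, at chr6:31321653-31321712, overlapped the first by 50 bases with 1 mismatch, G37T, counted from the first probe's 5′ end. The 30 bases around this position are shown because they hold the base that differs between the overlapping HLA-B probes. The base at position 16 of the stretch is in capitals (G16T between the first and the second line).
HLA-B probe at 31321663: agtcaattcctggaaGttgagagagcaaat
HLA-B probe at 31321653: agtcaattcctggaaTttgagagagcaaat
HLA-C probe at 31321644: agtcaattcctggaaGttgagagagcaaat
The HLA-C probe therefore had the same letters here as 1 of the HLA-B probes and lay at the position of HLA-B, and how far each gene's RNA contributes to each probe was not tested. Another HLA-C probe, at chr6:31236617-31236676, shared no run of 14 bases with a probe of any other gene. The third HLA-B probe, for which the annotation gave no position, reads a coding stretch of the peptide-binding domain, the most variable part of the protein between people, and is shown because it gave the widest difference between the lines.
HLA-B coding probe: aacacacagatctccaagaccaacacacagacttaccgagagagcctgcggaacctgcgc
Whether the alleles of these lines match that probe was not tested.

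The brightest HLA-E probe, at chr6:30460882-30460941, held a run found in many other genes. It shared a run of 14 bases with probes of 24 other genes, against at most 3 for any other of the 19 probes. Its values are therefore given beside those of the other HLA-E probe, at chr6:30460729-30460788, which shared a run with 1 other gene.

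The microRNA is shown with its seed, bases 2 to 8, in capitals (RefSeq, GRCh38.p14, chrX:146001100-146001121, minus strand).
miR-891b: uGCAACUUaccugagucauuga
A site complementary to the seed reads AAGTTGC, and 0 of the 19 probes of the class I genes held it, against 229 of 58201 probes on the array (0.393%). Probes cover 60 bases of a transcript, so this says nothing of the rest of these RNAs.

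Under NC1, the heavy chain signals were lower in the lung line than in the colorectal line. Of the 9 genes, 3 were at least 2-fold lower in A549 (HLA-B, HLA-C and HLA-F), where 16.2% of 19218 genes measured on both NC1 arrays were, and 0 were at least 2-fold higher, where 11.1% were. At 1.5-fold, TAP1 and TAP2 joined them, which made 5 lower (28.5% of all genes) and 0 higher (20.1%). The median difference over the 9 genes was -0.67 on the log2 scale, against -0.0997 over all genes measured. In bulk RNA, fewer cells with a transcript and less RNA per cell cannot be told apart.

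HLA-B, which presents peptides to CD8 T cells and is a ligand of killer cell receptors, had signals of 5505 and 5014 intensity units in HCT116 and of 1863 and 3346 in A549, with NC1 and miR-891b in turn, on its brightest probe. Both HCT116 arrays were above both A549 arrays. The NC1 signal of HCT116, after scaling, was 4.03-fold that of A549 on this probe, 7.22-fold on the HLA-B probe that differs by 1 base in the stretch above and 40.6-fold on the coding probe. The direction was thus shared by the 3 HLA-B probes, while the size depended on the probe. The coding probe read 326, 293, 10.9 and 25.3 units on the 4 arrays, and was well above background on each of them.

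HLA-C, the main class I ligand of inhibitory killer cell receptors, had signals of 13513, 12472, 2519 and 4459 units on the 4 arrays, on the probe at its own locus. The NC1 signal of HCT116 was 7.31-fold that of A549 on this probe and 6.28-fold on the probe that matches HLA-B and was brighter on average. The order of the arrays was the same on both.

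HLA-F, a less polymorphic heavy chain that can reach the cell surface without peptide, read 3404, 2681, 1038 and 1650 units on its brighter probe, at chr6:29693280-29693338. The difference between the NC1 arrays was 4.47-fold, and 4.43-fold on the dimmer probe at chr6:29692114-29692173. HLA-E, which shows leader peptides of other class I chains to the receptor NKG2A, differed by probe. The repeat-bearing probe read between 52105 and 53909 units on the 4 arrays, with a difference between the NC1 arrays of -0.43 on the log2 scale. The other HLA-E probe read 3599, 2848, 1437 and 1998 units, with HCT116 3.41-fold above A549 on NC1, the direction of the other heavy chains.

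B2M, the light chain shared by every class I heavy chain, did not show the gap. Its level was 5.71 in HCT116 NC1 and 5.87 in A549 NC1, a difference of 0.16. TAP1 was lower in A549, with levels of 4.66 and 3.99 on the NC1 arrays and a difference of -0.67. TAP2 stood at 2.24 in HCT116 NC1 and 1.24 in A549 NC1, just short of 2-fold lower. TAPBP (4.03 and 4.47) and NLRC5 (-1.20 and -0.85) were higher in A549 NC1, by 0.44 and 0.35.

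**Figure D1:**
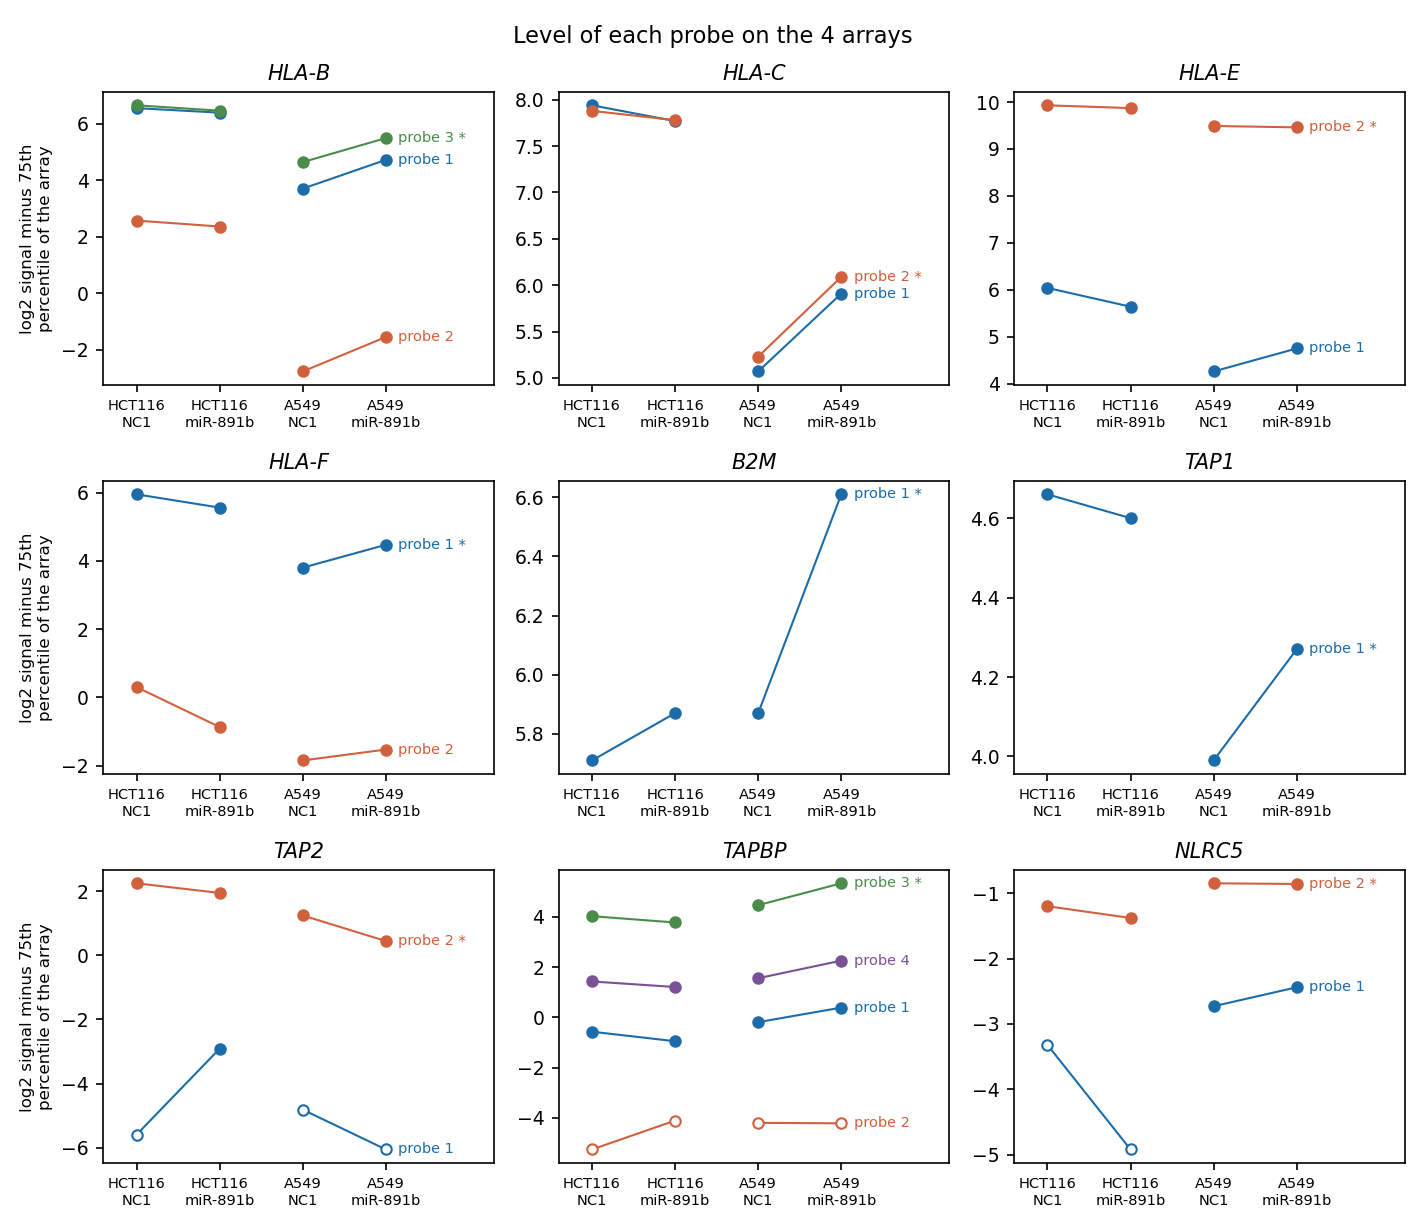
Log2 signal minus the array's 75th percentile (y axis, with its own range in each panel) of all 19 probes on the 4 arrays (x axis), 1 panel per gene. Each line joins the NC1 and the miR-891b array of a cell line, open points were not well above background, and the star marks the probe used for the gene. The heavy chain probes sit higher on both HCT116 arrays than on both A549 arrays, and most go down in HCT116 and up in A549.

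In HCT116, none of the class I genes differed by 1.5-fold between miR-891b and NC1, and few genes of the array did. All 9 were measured, and 0 were at least 2-fold lower, where 0.843% of 19105 genes were, and 0 at least 2-fold higher, where 1.16% were. At 1.5-fold, 0 were lower (5.65% of all genes) and 0 higher (3.91%). With shares this small, counts of 0 among 9 genes say little. The changes ran from -0.40 for HLA-F to 0.17 for B2M, with a median of -0.18 against -0.0409 over all genes (SD 0.38). Of the 9 genes, 8 had lower values with miR-891b and 1, B2M, had a higher value, where 44.5% of all genes had one; HLA-E and TAP1 turned above 0 under normexp correction with quantile normalization (0.06 and 0.01).

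In A549, 5 of the 9 genes were at least 1.5-fold higher with miR-891b than with NC1, where 11.1% of 21336 measured genes were. These were HLA-B, HLA-C, HLA-F, B2M and TAPBP, that is 3 heavy chains, the light chain and the loading chaperone. The probes used for HLA-B and HLA-C overlap in sequence, so these genes may not be separate readings. TAP2 was the 1 gene at least 1.5-fold lower, where 15.3% of all genes were, and its change of -0.52 under normexp correction with quantile normalization was short of 1.5-fold. At 2-fold, 0 were higher (4.01% of all genes) and 0 lower (5.57%). Normexp background correction with quantile normalization, and quantile normalization alone, each took HLA-B, HLA-C, B2M and TAPBP past 2-fold, all higher. The share of all genes past 2-fold under these settings was not computed, so that count has nothing to be set against. The median change was 0.68, with a range of -0.80 to 0.88, against -0.0587 over all genes (SD 0.61). Of the 9 genes, 6 had higher values, where 44.4% of all genes had, and TAP2, HLA-E and NLRC5 had lower ones, of which HLA-E (5 of 9 alternatives) and NLRC5 (2 of 9) changed sign. Changes were wider in A549 over the whole array as well.

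By gene, HLA-B changed by 0.86 on the log2 scale in A549 on its brightest probe (1.81-fold), by 1.02 on the second probe and by 1.22 (2.33-fold) on the coding probe, while the same probes gave -0.19, -0.16 and -0.21 in HCT116. The spot of the brightest probe lay in an area of stray signal on HCT116 miR-891b (14.7% of nearby dim spots were well above background there). HLA-C changed by 0.83 in A549 and -0.17 in HCT116 on the probe at its own locus, and by 0.86 and -0.10 on the brighter probe. The 5 probes of these genes therefore shared 1 direction in each line. However, the annotation lists the RefSeq transcripts of the own-locus HLA-C probe under both brighter HLA-B probes as well. These probes may read the same RNA in part, which was not tested, so they are not 5 separate readings.

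HLA-F changed by 0.68 in A549 and -0.40 in HCT116 on its brighter probe. Its dimmer probe gave 0.32 and -1.17, but the spot of that probe also had stray signal around it on HCT116 miR-891b (14.7%), and with the mean over both probes the change was -0.78 in HCT116 and 0.50 in A549, short of 1.5-fold there. For HLA-E, the repeat-bearing probe gave -0.04 in A549 and -0.06 in HCT116, whereas the other probe gave 0.49 and -0.39.

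**Figure D2:**
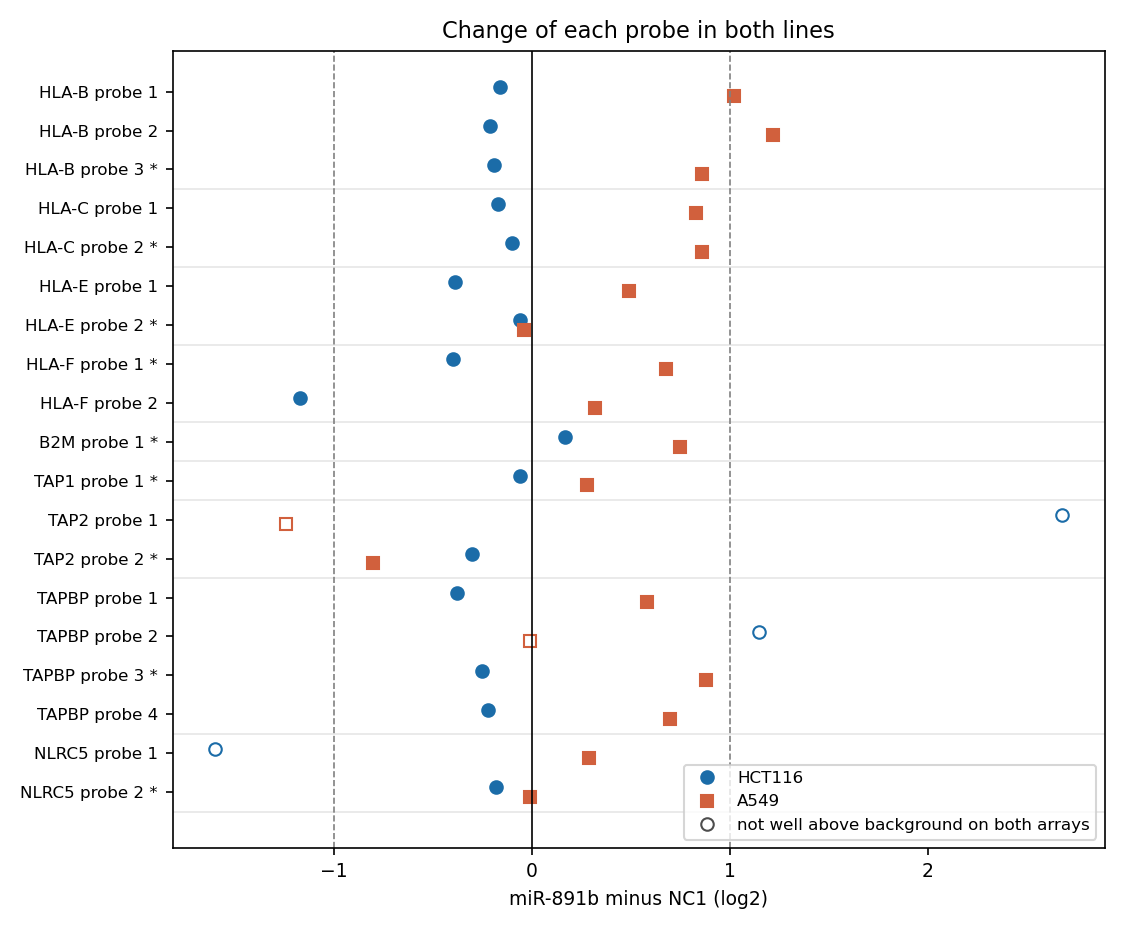
Change of each of the 19 probes, miR-891b minus NC1 on the log2 scale (x axis), in HCT116 (circles) and A549 (squares), with dashed lines at 2-fold and a star on the probe used for each gene. Every probe of HLA-B, HLA-C and HLA-F is below 0 in HCT116 and above 0 in A549, and the 3 TAPBP probes measured in both lines do the same. Open points were not well above background on both arrays and are not counted.

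B2M had the firmest values, since its probe (chr15:45007773-45007832) was printed 10 times on each array. It is shown because the probes of the other 8 genes had 1 spot each.
B2M probe: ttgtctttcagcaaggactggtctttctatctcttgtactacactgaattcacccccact
Of the 10 spots, 9 were used on each NC1 array after a spot with an outlier mark was left out. The signal was 2867 ± 89 intensity units in HCT116 NC1 (SD, n = 9 spots) and 3343 ± 113 in HCT116 miR-891b (SD, n = 10 spots). In A549 it was 4362 ± 89.6 with NC1 (SD, n = 9 spots) and 7267 ± 185 with miR-891b (SD, n = 10 spots), before scaling between arrays. In both lines, the lowest spot with miR-891b (3216 and 6841) was above the highest with NC1 (2994 and 4470). After scaling, the change over the 9 spots was 0.16 in HCT116 (SD 0.0582, 0.08 to 0.23) and 0.74 in A549 (SD 0.0461, 0.67 to 0.84). B2M was the 1 gene of the 9 with a positive change in both lines. These spots share an RNA sample and an array, so their SD covers the printing and scanning and not the cultures. Over all 276 probes with at least 5 spots, the median SD of such a difference was 0.0615 in HCT116, and over 287 such probes in A549 it was 0.0711.

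**Figure D3:**
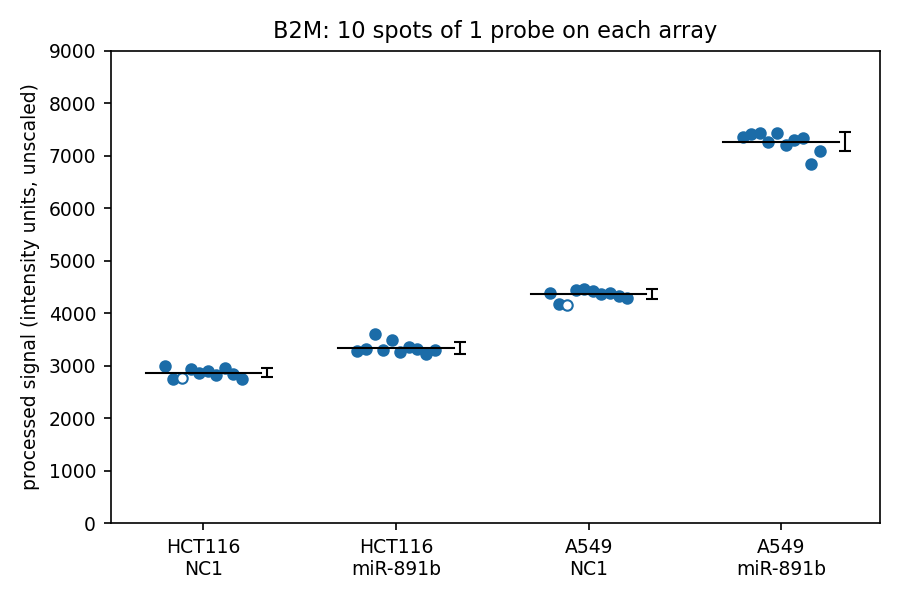
Processed signal of the 10 B2M spots (y axis, intensity units, not scaled between arrays) on each of the 4 arrays (x axis). Lines are means and bars 1 SD over the spots used, and open points had an outlier mark and were left out. The A549 miR-891b spots lie between 6841 and 7439, above all spots of the other arrays.

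The transporter and chaperone genes went separate ways. TAP1, the first subunit of the peptide transporter, read 1384 and 1379 units in HCT116 and 1187 and 1434 in A549, for NC1 and miR-891b in turn. Its changes of -0.06 and 0.28 were under 1.5-fold in both lines. TAP2, the partner of TAP1 in the transporter, read 259 and 218 units in HCT116 and 176 and 101 in A549, with changes of -0.30 and -0.80. Both lines had lower TAP2 signal with miR-891b. A dimmer TAP2 probe, at chr6:32789804-32789863, was well above background only on HCT116 miR-891b, where its spot also lay in an area of stray signal (15.4%). On that array it was at least 1.56-fold above HCT116 NC1, opposite to the other TAP2 probe.

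TAPBP, which encodes tapasin, read 895 and 784 units in HCT116 and 1652 and 3008 in A549 on its brightest probe (chr6:33267718-33267777). The changes were -0.25 and 0.88 (1.83-fold in A549). Of its 4 probes, 1 was below the background mark on all 4 arrays, and the other 2 gave -0.38 and -0.22 in HCT116 and 0.58 and 0.70 in A549. One of these is annotated over chr6:33273141-33281029, longer than a probe, and so spans a splice junction. NLRC5 read 23.9 and 21.9 units in HCT116 and 41.4 and 40.9 in A549 on its brighter probe (chr16:57077428-57077487), with changes of -0.18 and -0.01. The other NLRC5 probe, at chr16:57116822-57116881, was too dim to measure in HCT116 and changed by 0.29 in A549. With the mean over both probes, the NLRC5 changes were -0.89 and 0.14. The HCT116 mean takes in -1.60 from the dim probe, which was not well above background on either HCT116 array. It is therefore not a measured change. On the NC1 arrays this dim NLRC5 probe was at least 1.51-fold higher in A549. For such bounds, the dim array's level was set to the lowest signal among its probes well above background, or the probe's own if higher.

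**Figure D4:**
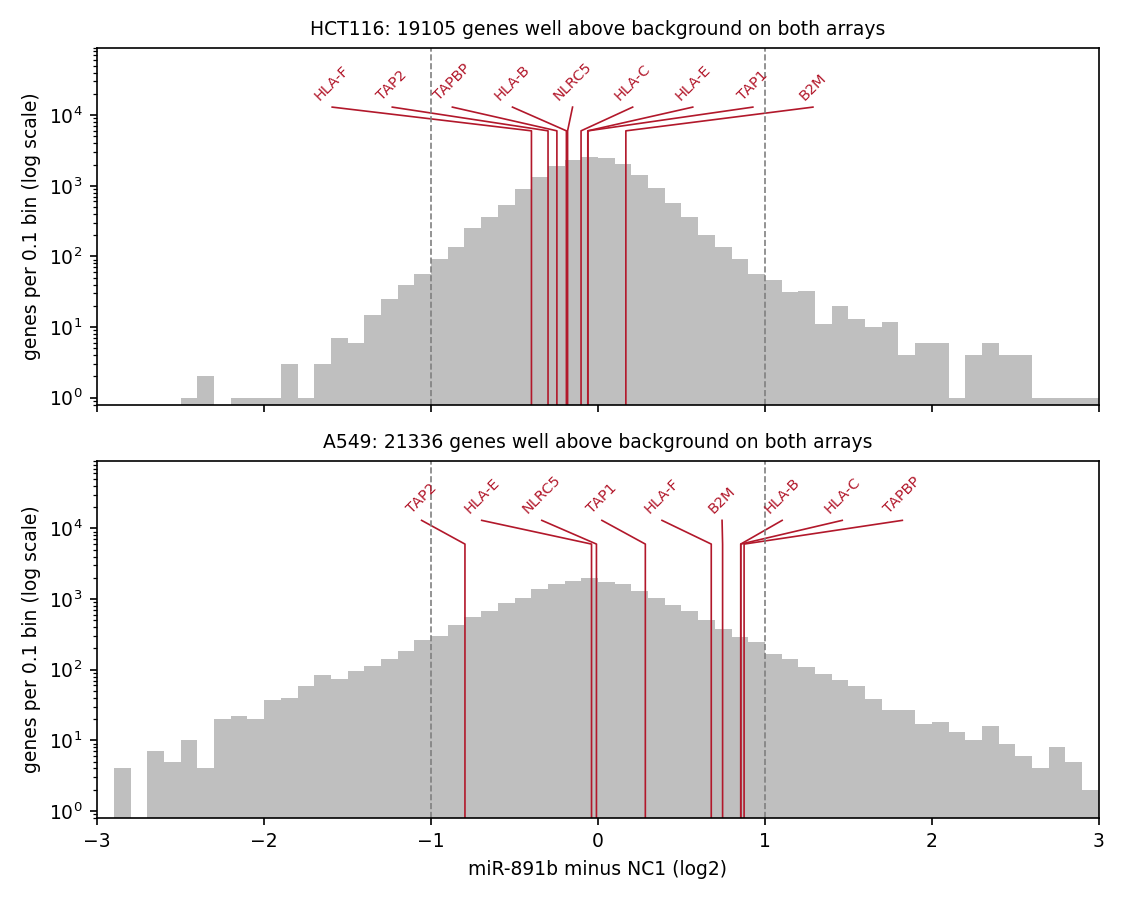
Genes per bin of 0.1 log2 units (y axis, log scale) by change, miR-891b minus NC1 (x axis, shown from -3 to 3), for all genes measured in HCT116 (top) and A549 (bottom). Red lines mark the 9 class I and loading genes and dashed lines 2-fold. In HCT116 the genes sit between -0.40 and 0.17, and in A549 HLA-B, HLA-C, HLA-F, B2M and TAPBP sit between 0.68 and 0.88.

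The change in A549 exceeded that in HCT116 for 8 of the 9 genes, where it did for 45.7% of the 18064 genes measured on all 4 arrays. The excess was 1.12 for TAPBP, 1.08 for HLA-F, 1.04 for HLA-B and 0.96 for HLA-C, down to 0.17 for NLRC5 and 0.02 for HLA-E. Of the 9 genes, 5 were lower in HCT116 and higher in A549, where 21.8% of all genes were. With 1 array per group this difference was not tested. The gap between the lines and the change in A549 both rest on the A549 NC1 array, so they are not independent of each other. On the miR-891b arrays, the heavy chain gap was narrower, at -0.96 for HLA-B against -2.01 on the NC1 arrays, -1.69 against -2.65 for HLA-C and -1.08 against -2.16 for HLA-F. There, 3 genes (HLA-C, HLA-F and TAP2) were at least 2-fold lower in A549, where 20.7% of 18576 genes were, and 1 (TAPBP) was at least 2-fold higher, where 11.4% were.

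The cell lines gave the sole replication of the transfection. A limma fit of both lines together, with the line as a covariate, covered 22712 genes with 1 residual degree of freedom. On simulated data, this fit called 0 of 40 planted changes of 2-fold. It could therefore not decide on changes under 2-fold, the size of all those of the 9 genes. It called 0 of the 9 class I genes at a Benjamini-Hochberg adjusted p of 0.05. It called 0 genes of all (0%), with a smallest adjusted p of 0.793. At an unadjusted p of 0.05, limma called 0 of the 9 and 1214 of all genes (5.35%). B2M had an estimate of 0.46 (SE 0.27, limma adjusted p = 0.793) and was higher in 2 of 2 lines. TAP2 had an estimate of -0.55 (SE 0.26, limma adjusted p = 0.793) and was lower in 2 of 2 lines.

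Genes that cut, trim and fold for class I were taken as a list. The immunoproteasome, trimming and folding list held 11 genes, of which 9 were measured in HCT116 and 11 in A549. At 2-fold, 0 were lower and 0 higher in HCT116, where 0.843% and 1.16% of all genes were. In A549, 1 was lower and 1 higher, where 5.57% and 4.01% of all genes were. Its median change was -0.25 in both lines. CANX, the chaperone calnexin that holds new heavy chains, was the lower one in A549 (-1.68, against -0.26 in HCT116). TAPBPL, a tapasin relative that edits peptides, was the higher one (1.2) and was not well above background on HCT116 miR-891b.

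Some of this list were named after their values were seen, for their place beside the class I genes. CALR and PDIA3, calreticulin and its partner in the loading complex, both changed by 0.68 in A549 and by -0.09 and -0.32 in HCT116. The PDIA3 spot had stray signal around it (17.0% on the most affected array). ERAP1 and ERAP2, which trim peptides to length, had opposite values, with changes of -0.38 and 0.59 in HCT116 and -0.74 and 0.92 in A549. PSMB9, an immunoproteasome subunit, changed by -0.91 in HCT116 and -0.65 in A549. In A549 the subunit PSMB10 changed by -0.25, and PSME1 and PSME2, which form the proteasome activator, by -0.46 and -0.53. PSMB8, the remaining immunoproteasome subunit, changed by 0.11 in A549. In HCT116 it was too dim to measure, and the NC1 arrays put A549 at least 31.4-fold above it.

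Of the 8 other class I-like chains and ligands listed, 7 were on the array and 6 were measured in each line. In HCT116, 0 of the 6 were past 2-fold (0.843% of all genes were lower and 1.16% higher). In A549, 0 of the 6 were (5.57% of all genes were lower and 4.01% higher). Their median change was -0.14 in HCT116 and 0.44 in A549. HLA-G, a heavy chain close in sequence to HLA-B and named after its values were seen, changed by -0.20 and 0.90 with a difference between the lines of -2.60 on the NC1 arrays. Its probe read 14014, 12639, 3156 and 5858 units on the 4 arrays, and shared a run of 14 bases with probes of 1 other gene. Whether this probe reads RNA of other class I genes was not tested. FCGRT, the heavy chain of the neonatal Fc receptor, also binds B2M. It changed by -0.63 and 0.63, yet its difference between the lines on the NC1 arrays was 3.55.

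Of 19 regulators of class I transcription and interferon signalling, 17 were measured in HCT116 and 18 in A549. In HCT116, 0 were past 2-fold, where 0.843% of all genes were lower and 1.16% higher. In A549, 0 were past 2-fold, where 5.57% of all genes were lower and 4.01% higher. With shares this small, a count of 0 in so short a list says little. The medians were -0.09 and 0.05. The partners of NLRC5 at class I promoters gave changes of -0.16 and -0.04 (RFX5), 0.26 and 0.56 (RFXAP) and -0.41 and -0.06 (RFXANK) in HCT116 and A549. The RFXAP probe was dim, at 12.6 to 25.7 units, and had stray signal around it (19.1% on the most affected array). IRF1, an interferon-induced activator, changed by -0.12 and 0.38.

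The class II list, of class II HLA genes (including HLA-DMA and HLA-DMB) and CD74, had 9 genes, of which 6 were measured in each line. In HCT116 all 6 had lower values with miR-891b, where 44.5% of all genes had higher ones, and 1, HLA-DQB1, was at least 2-fold lower (-1.02), where 0.843% of all genes were. In A549, 0 were past 2-fold, where 5.57% of all genes were lower and 4.01% higher. There, 4 had lower and 2 higher values, where 44.4% of all genes had higher ones, and HLA-DQB1 changed by -0.28. The medians were -0.58 and -0.13. CIITA, the class II counterpart of NLRC5, and CD74, the class II invariant chain, were at background on all 4 arrays. Leukocyte markers, which would carry class I and class II RNA of other cells, were well above background for 2 or 3 of the 5 on the array, with CD3E and CD74 on none. Of 5 fibroblast markers, 2 or 3 were, with COL3A1 and DCN on none. LUM, a fibroblast marker, was measured in A549 alone and changed by 2.14 there, while COL1A1 changed by -0.59 and PDGFRB by -0.04. The part of these markers in the class I values was not tested.

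**Figure D5:**
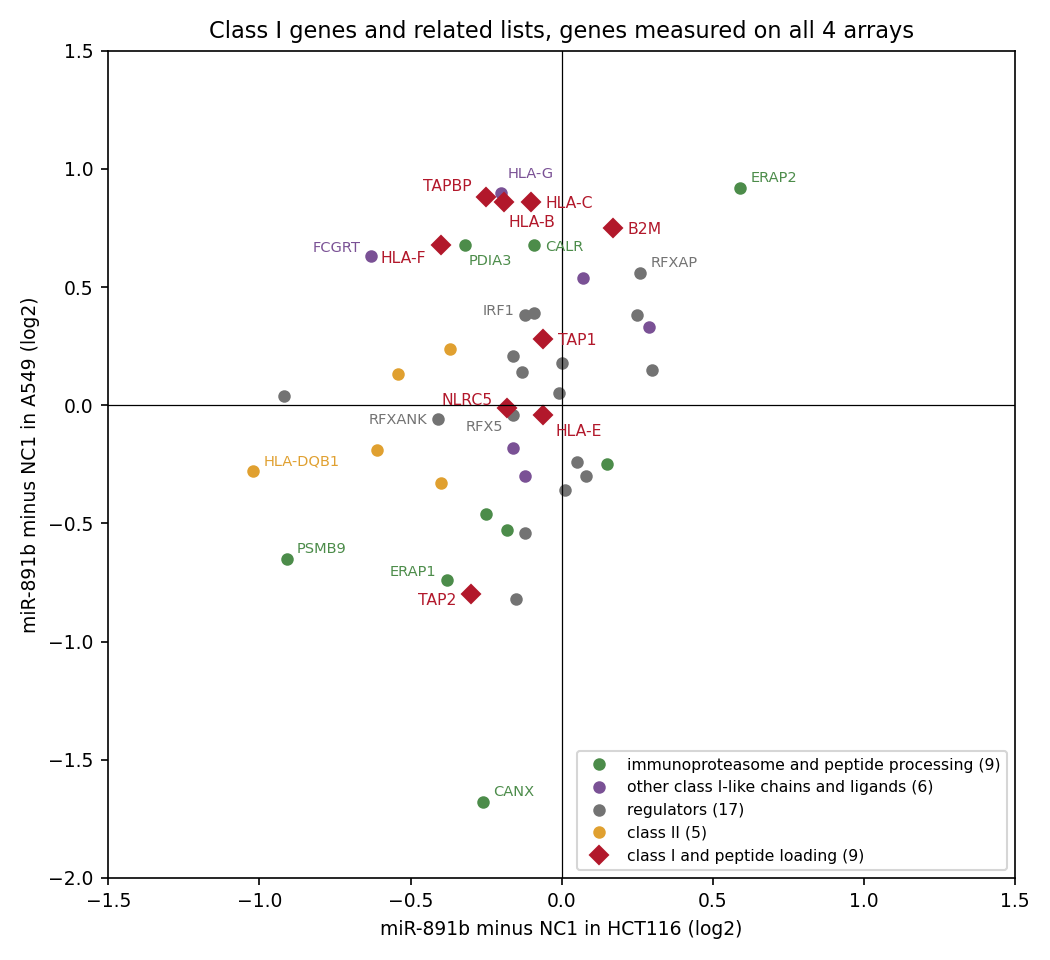
Change in HCT116 (x axis) against change in A549 (y axis), miR-891b minus NC1 on the log2 scale, for the 9 class I and loading genes (diamonds) and for genes of 4 related lists measured on all 4 arrays (circles, numbers in the legend). Labels mark the class I genes and genes named in the text. HLA-B, HLA-C, HLA-F and TAPBP lie together at negative values in HCT116 and values of 0.68 to 0.88 in A549, with HLA-G, CALR and PDIA3 near them and TAP2 below.

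Class I promoters are known for a set of upstream elements, and 5 are shown because these genes (HLA-B, HLA-C, HLA-F, B2M and TAPBP) passed 1.5-fold upward in A549. The stretches run from 187 to 31 bases before the start site, and for TAPBP from 157 to 1 so as to hold its matches, on the gene's strand (RefSeq, GRCh38.p14). They lie at chr6:31357210-31357366 (minus strand), chr6:31272123-31272279 (minus strand), chr6:29723247-29723403 (plus strand), chr15:44711330-44711486 (plus strand) and chr6:33314079-33314235 (minus strand). Capitals mark matches, on either strand, to the interferon regulatory factor core GAANNGAAA, the interferon response element core GAAANNGAAA, the NF-kB site GGGNNTTCC, the X2 core TGACG and the Y core ATTGG, of which the X and Y boxes are where NLRC5 is known to act with RFX and NF-Y.
HLA-B: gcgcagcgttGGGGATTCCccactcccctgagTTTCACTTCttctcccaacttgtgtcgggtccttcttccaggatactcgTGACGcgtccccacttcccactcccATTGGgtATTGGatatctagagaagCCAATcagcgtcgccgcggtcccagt
HLA-C: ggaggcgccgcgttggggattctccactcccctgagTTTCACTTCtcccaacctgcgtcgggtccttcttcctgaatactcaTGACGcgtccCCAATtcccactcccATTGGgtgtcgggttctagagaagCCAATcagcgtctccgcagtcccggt
HLA-F: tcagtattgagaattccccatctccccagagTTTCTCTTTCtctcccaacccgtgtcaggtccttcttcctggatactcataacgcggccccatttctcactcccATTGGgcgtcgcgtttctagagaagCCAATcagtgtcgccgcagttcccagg
B2M: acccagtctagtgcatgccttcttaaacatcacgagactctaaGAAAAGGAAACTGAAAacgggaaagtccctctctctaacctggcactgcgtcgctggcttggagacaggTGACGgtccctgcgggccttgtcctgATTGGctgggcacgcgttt
TAPBP: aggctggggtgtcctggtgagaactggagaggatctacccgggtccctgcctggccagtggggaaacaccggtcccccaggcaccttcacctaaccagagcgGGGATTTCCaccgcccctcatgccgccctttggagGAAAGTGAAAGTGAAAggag
Of the 9 genes, 7 were matched to a window of 300 bases around the start in the table used here, and HLA-E and NLRC5 were not matched. The Y core was in 5 of the 7 (HLA-B, HLA-C, HLA-F, B2M and TAP1), and in 34.6% of all 35116 windows. The X2 core was in 4 (HLA-B, HLA-C, B2M and TAP2) and in 24.6% of all. The regulatory factor core was in 3 (HLA-B, HLA-C and TAP2) and in 7.66% of all. The NF-kB site was in 3 (HLA-B, B2M and TAPBP) and in 6.58% of all. The B2M match begins 4 bases before the start site and so lies outside the stretch shown. The TAPBP window held neither an X2 nor a Y core.

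The response element core, searched for after the windows had been seen, was in 5 (HLA-F, B2M, TAP1, TAP2 and TAPBP) and in 3.57% of all. The 2 interferon cores overlap in the TAP2 window. HLA-B and HLA-C had their X2 core 106 and 105 bases before the start, and both had a Y core 56 bases before it. TAP2, which had lower values in A549, held both interferon cores and an X2 core, and B2M, which had higher values there, held the response element core and an X2 core. These are matches of letters and not sites shown to be bound.

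TAP1 and PSMB9 are neighbours on chromosome 6 that are read in opposite directions. Their start sites, at 32853704 and 32854192 (GRCh38.p14), have 487 bases between them. TAP1 changed by -0.06 in HCT116 and 0.28 in A549, and PSMB9 by -0.91 and -0.65.

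Profiles over the 4 arrays, each centred on its own mean, were compared by distance with the mean of the 4 heavy chain genes, over 18064 genes. Genes named by an accession, a locus or LINC number, an open reading frame or the like were left out of the rankings here. The nearest of the rest outside the 9 were CAPN1 (0.0466), ADAMTS7P1 (0.0691), NDRG2 (0.076), ZNF264 (0.0828) and SNHG16 (0.101). The mean profile was 0.81, 0.62, -1.01 and -0.42 on the 4 arrays. HLA-B was at a distance of 0.199, HLA-F at 0.253, HLA-C at 0.773 and HLA-E at 1.1. These 4 are part of that mean and the other members are not, so their distances are not on a par. The other genes were at 0.958 for TAP1, 0.998 for TAP2, 1.90 for B2M, 1.91 for NLRC5 and 2.43 for TAPBP. Without the repeat-like probes, which left 17941 genes and moved HLA-E to its other probe, HLA-E came to 0.371, HLA-F to 0.1, and the nearest genes outside the 9 were TRABD2A (0.115), HCST (0.116), USF1 (0.123), FBXO6 (0.147) and KLF9 (0.148), none of them among the first 5. With 4 points per profile, of which each line gives 2, such nearness is a description of these arrays.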

How the data were processed

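Total RNA (100 ng) was labelled with Cy3 and hybridised to Agilent 1-colour arrays, 1 per group, per the labels. Feature Extraction 11.5.1.1 quantified the scans, per the file headers, with probe positions on hg19. Intensity values fill the deposited scanner files, corrected for background within each array by that software and not scaled from array to array. A deposited table holds the authors' own log2 values. Compared array by array, these were the scanner's log2 processed signal less its 75th percentile, to a median difference of 0.00691 or less per array (at most 0.109). The median log2 value of the authors' columns was between -3.80 and -3.60. How the authors made them is not given in the sources used here.

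Outlier-marked spots were dropped, log2 was averaged over a probe's spots, and the array's 75th percentile over gene probes was subtracted (54.9 and 57.0 intensity units in HCT116, 74.8 and 74.2 in A549, NC1 first). A gene was read from its brightest probe on average. Intensities printed in the report are not scaled. For the additive model, lmFit and eBayes of limma 3.58.1 were run in R 4.3.3, on genes well above background on at least 2 of 4 arrays. Other values came from Python 3.11.15 with numpy 2.4.6, pandas 2.3.3 and matplotlib 3.10.9.

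An area was counted as having stray signal where, among spots up to 10 rows and 10 columns away that are dim elsewhere, at least 10% passed the background mark. The named genes were all members with all their probes, genes of the pathway lists at least 2-fold changed in a line, RFX5, RFXAP, RFXANK, IRF1 and the 5 genes nearest to the heavy chain profile. Some items that the rule selects are not reported here. Other names were chosen after their values were seen. The members and lists were chosen with earlier results of these data known. Promoter windows, start sites and the microRNA came from RefSeq tables for GRCh38.p14.

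The alternatives were quantile normalization with and without normexp correction (offset 50), median scaling, the authors' values, no filter on dim probes, the mean over probes, outlier spots kept, areas of stray signal left out, and thresholds of 1.5-fold and 3-fold. Leaving out the 293 probes that share a run of 14 bases with probes of 10 or more other genes was chosen after seeing the data. Tested on simulated data, the additive model was given 22712 genes and 40 planted changes of each size. It called 0 of those at 2-fold, 1 at 4-fold and 30 at 8-fold, besides 7 unchanged genes. Precision is limited by the number of arrays.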

Additional observations from a re-analysis of the deposited data

Results flagged for a closer look

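For 5 of the 9 genes, the values with miR-891b were below NC1 in HCT116 and above it in A549, a pattern shared by 21.8% of the 18064 genes measured on all 4 arrays, and this contrast between lines was not tested. HLA-B changed by -0.19 in HCT116 and 0.86 in A549. HLA-C changed by -0.10 and 0.86, and HLA-F by -0.40 and 0.68. The loading genes TAP1 (-0.06 and 0.28) and TAPBP (-0.25 and 0.88) had the same signs, except that TAP1 in HCT116 was 0.01 under normexp correction with quantile normalization. The median over the 9 genes was -0.18 in HCT116 and 0.68 in A549. The HCT116 values of TAP1 and HLA-C were of the size of the SD between repeated spots of 1 probe (0.0615) or not far above it.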

How the results depend on the processing

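Of 60 recomputed summary values (6 summaries under their alternatives), 49 stayed close to the main value and 11 did not. Close means counts within 1.5 times and medians within the SD between spots. Neither median changed sign. Several of the 60 could hardly move, so the tally is no measure of robustness. All 9 genes were well above background on the 4 arrays, so the filter left them as they were, and the authors' values follow the main scaling. The count of genes past 2-fold in A549 was 0 in the main setting and 4, all higher, under normexp correction with quantile normalization and under quantile normalization alone. It was 1 (HLA-B) with the mean over probes and 1 (HLA-B, by its second probe, at 1.02) outside areas of stray signal, and 6 at 1.5-fold. Shares of all genes were computed in the main setting alone. Over all genes measured on the 4 arrays, the median A549 change was -0.073 in the main setting. It was 0.00357 under normexp with quantile and -0.000499 under quantile alone. The count between the lines on NC1 was 3 in the main setting, 5 at 1.5-fold, and 4 under the authors' values (with TAP2), the mean over probes and without repeat-like probes (with HLA-E in both). The median change in A549, 0.68 in the main setting, was 0.77, 0.87 and 0.50 under normexp with quantile, quantile and the mean over probes. In HCT116, -0.18 became -0.06 and -0.12 under the first and second of these. The cause was not tested. The limma count was 0 in the main setting and under all alternatives run. Among single genes, the sign turned for HLA-E (2 alternatives in HCT116, 5 of 9 in A549), TAP1 in HCT116 (0.01 under normexp with quantile) and NLRC5 in A549 (2 alternatives). The other genes kept theirs. The line term of the limma fit is what pairs miR-891b with NC1. Dim probes, such as those of NLRC5, have the least precise values.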
